A study of Mus musculus with 2 samples.

Results

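The mir-26 family of the mouse consists of the 3 microRNA genes Mir26a-1, Mir26a-2 and Mir26b, which lie within Ctdspl, Ctdsp2 and Ctdsp1. They were chosen by name, and all 3 were found among the 2202 microRNA genes measured. The tissue, labelled as layer of hippocampus, came from female B6CASTF1/J mice aged 10 days and was profiled by microRNA-seq. The strain is a first-generation cross of C57BL/6J with CAST mice. The series holds 1 group, untreated as far as the labels say, with 2 biological replicates. Each replicate was made from a pool of 3 females, and the labels name separate females for each. RNA below 30 nt was sequenced. With 1 group there is no comparison between conditions, so the family's sequences, its levels, and the differences between the 2 libraries were measured.

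A microRNA gene is transcribed as a hairpin, and either arm of the hairpin can be cut out as a mature microRNA of about the length of the sequenced reads. The mature strand pairs with messenger RNAs mainly through its seed, bases 2 to 8, and lowers their stability and translation. The host genes encode small phosphatases that act on the C-terminal domain of RNA polymerase II. REST, the repressor of neuronal genes in cells that are not neurons, works together with these phosphatases. Mir-26 is known to repress Ctdsp2, itself a host gene of the family, as neural precursors differentiate.

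The mature sequences show which of the 3 genes a read can name. The lines below give the annotated mature microRNAs (RefSeq, GRCm38.p6), 5′ to 3′, with the seed in capitals.
mmu-miR-26a-5p, from both Mir26a-1 and Mir26a-2: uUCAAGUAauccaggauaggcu
mmu-miR-26b-5p, from Mir26b: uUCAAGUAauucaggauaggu
mmu-miR-26a-1-3p, from Mir26a-1: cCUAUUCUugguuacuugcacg
mmu-miR-26a-2-3p, from Mir26a-2: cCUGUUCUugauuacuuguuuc
mmu-miR-26b-3p, from Mir26b: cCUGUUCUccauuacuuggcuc
The 5p arms of all 3 genes carry the seed UCAAGUA, and among the mature sequences of RefSeq no gene outside these 3 has it. Counted from the 5′ end of miR-26a-5p, miR-26b-5p differs at 2 positions, C11U and C21U, both outside the seed, and is 21 rather than 22 bases long. The 3p arms differ more. From miR-26a-1-3p to miR-26a-2-3p there are 6 substitutions, A4G, G11A, C19U, A20U, C21U and G22C, and A4G lies in the seed. MiR-26a-2-3p and miR-26b-3p differ at 4 positions (U9C, G10C, U19G and U20C) and so share the seed CUGUUCU, which also occurs in miR-6932-3p and miR-7039-3p. By seed, the 3p arm of Mir26a-2 therefore groups with that of Mir26b and not with that of Mir26a-1.

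The whole hairpins, with the mature arms in capitals, show how far the sequence shared by the Mir26a genes extends beyond miR-26a-5p.
Mir26a-1: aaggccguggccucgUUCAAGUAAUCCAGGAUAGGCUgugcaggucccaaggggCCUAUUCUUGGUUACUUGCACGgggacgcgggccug
Mir26a-2: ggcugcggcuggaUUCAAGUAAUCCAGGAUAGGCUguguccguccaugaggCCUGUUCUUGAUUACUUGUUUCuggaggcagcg
Mir26b: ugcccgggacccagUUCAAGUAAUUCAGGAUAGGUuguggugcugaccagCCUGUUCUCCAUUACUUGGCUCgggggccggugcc
Mir26a-1 and Mir26a-2 share the 25-base stretch UUCAAGUAAUCCAGGAUAGGCUgug, which is miR-26a-5p (capitals) and the 3 bases after it. They differ at the base just before it. A read that starts at the annotated 5′ end of miR-26a-5p therefore matches both genes up to a length of 25 bases and can tell them apart from base 26 on. Of the 22-base windows of Mir26a-1, 65 of 69 occur in no other annotated microRNA gene, and of those of Mir26a-2, 59 of 63. All 64 windows of Mir26b are its own, and its longest stretch in another microRNA gene has 11 bases.

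**Figure D1:**
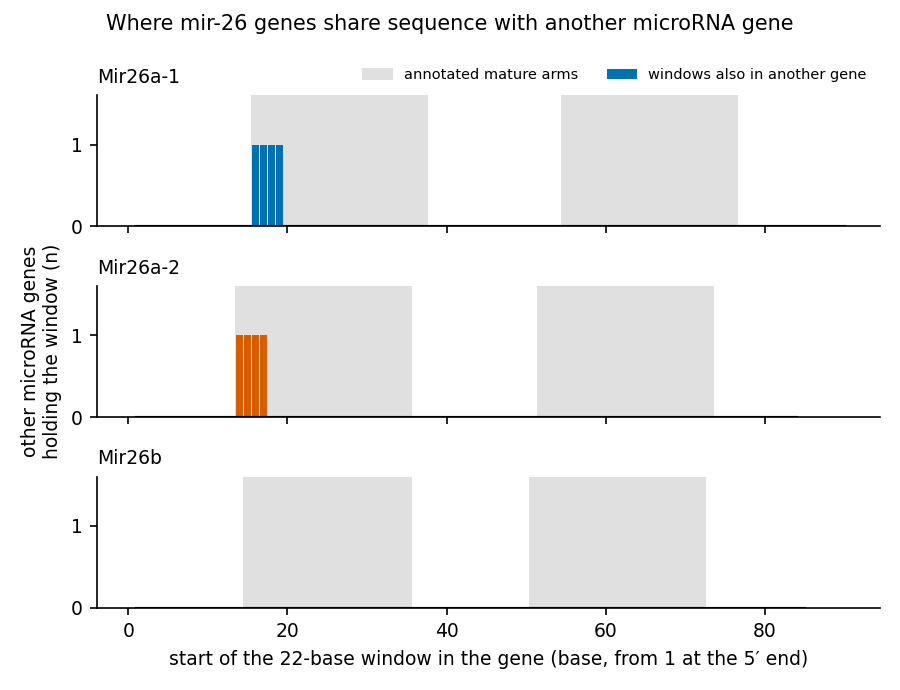
For each mir-26 gene, the number of other annotated microRNA genes that hold the 22-base window starting at each base, with the 2 mature arms shaded grey. In Mir26a-1 and Mir26a-2 the 4 shared windows start within the first bases of the 5p arm, and Mir26b has none.

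The deposited tables hold reads with several places in a row of their own, outside the gene counts, and this row took 43.2% of all reads in replicate 1 and 39.3% in replicate 2. A read of miR-26a-5p that ends within the shared stretch has at least these 2 places. Among exactly matching reads, the counts of Mir26a-1 and Mir26a-2 thus cover those outside the shared stretch, such as those of the 3p arm, or reaching beyond it. The sources used here do not name the aligner, so the mismatches it allowed are not known. The level of miR-26a-5p was not determined. The tables count reads per gene, so arms were not counted separately for any of the 3 genes.

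The 3 loci share their arrangement. Each microRNA lies on the plus strand, as does its host. Positions below refer to GENCODE M21 on GRCm38 (mm10). Mir26a-1 (ENSMUSG00000065513.1, chromosome 9, 119031796 to 119031885) lies in intron 5 of 7 of Ctdspl-201, the transcript of Ctdspl (chromosome 9, 118926453 to 119043998) with the most exons. Mir26a-2 (ENSMUSG00000065430.1, chromosome 10, 126995530 to 126995613) lies in intron 5 of 7 of Ctdsp2-202. In 2 shorter Ctdsp2 transcripts, Ctdsp2-201 and Ctdsp2-203, the first exon begins at the last base of Mir26a-2, an overlap of 1 base. Mir26b (ENSMUSG00000065468.1, chromosome 1, 74394310 to 74394394) lies in intron 4 of 6 of Ctdsp1-201. No annotated microRNA gene overlaps any of the 3 on either strand. The nearest to Mir26b is 188 kb away and the nearest to Mir26a-1 1032 kb away. Mir26a-2 has a neighbour at 2.83 kb, Mir546, also on the plus strand and within the bounds of Ctdsp2, which had 4 counts in replicate 1 and 6 in replicate 2. Mir546 was named after its values were seen.

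The gene counts of the family, which leave out reads with several places, fell nearly all on Mir26b. Mir26b stood at the same level in both libraries, whereas Mir26a-2 was far lower in replicate 2. Levels are given as CPM, the sense-strand counts of a gene per 1000000 such counts over all microRNA genes. All 3 genes had at least 10 counts in each library, the minimum used to call a gene detected, which 429 of the 2202 genes met.

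Mir26b had 21105 counts in replicate 1 and 13481 in replicate 2, or 3852 and 3783 CPM. Its mean was 3818 ± 48.4 CPM (SD, n = 2), and it ranked 49th and 47th among the 2202 genes. The 2 libraries thus placed it alike.

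Mir26a-2 had 1563 counts in replicate 1 and 59 in replicate 2, or 285 and 16.6 CPM. The mean of 151 ± 190.0 CPM (SD, n = 2) describes neither library. Its rank was 168 in replicate 1 and 303 in replicate 2. The exact Poisson intervals at 95%, which cover counting error only, ran from 271 to 299.8 CPM and from 12.6 to 21.4 CPM and did not overlap.

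Mir26a-1 was the lowest of the 3, with 51 and 15 counts, or 9.31 and 4.21 CPM, and a mean of 6.76 ± 3.60 CPM (SD, n = 2). It ranked 330th and 401st. Its intervals, 6.93 to 12.2 CPM in replicate 1 and 2.36 to 6.94 CPM in replicate 2, touched. A count of 0 was taken to allow up to 3 counts, a floor set apart from these intervals. This floor stood at 0.548 and 0.842 CPM in the respective libraries, and all 3 genes stood above it in both libraries.

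**Figure D2:**
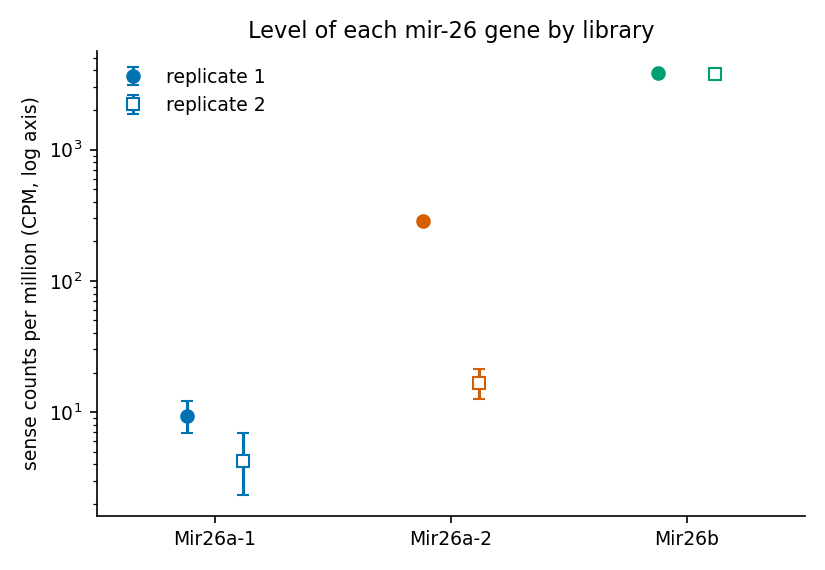
Level of each mir-26 gene in CPM on a log axis, with filled circles for replicate 1, open squares for replicate 2, and bars for the exact Poisson interval of the count. Mir26b stands at 3852 and 3783 CPM, Mir26a-2 at 285 and 16.6 CPM, and Mir26a-1 lies lowest in both libraries.

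The order Mir26b, Mir26a-2, Mir26a-1 was the same in both libraries. The distances between the genes were not. Mir26b had 13.5 times the counts of Mir26a-2 in replicate 1 and 228 times in replicate 2, while Mir26a-2 had 30.6 and 3.93 times those of Mir26a-1. Because the SD of Mir26a-2 exceeds its mean, the difference of its mean from that of Mir26a-1 is not larger than this spread between libraries. Within each library Mir26a-2 was the higher, and the counting intervals of the Mir26a genes did not overlap. The genes are 84 to 90 bases long, and per base of gene the mean levels kept this order at 44.9, 1.80 and 0.0751 CPM. Among exactly matching reads of both Mir26a genes, the order covers only those that do not lie wholly within the shared stretch. The order thus does not rank the 3 mature 5p products.

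The family took 0.415% of the sense counts on microRNA genes in replicate 1 (exact Clopper-Pearson interval 0.409% to 0.420%) and 0.380% in replicate 2 (0.374% to 0.387%), a mean of 0.398% ± 0.0242 (SD, n = 2). Mir26b made up 92.9% of the family's counts in replicate 1 (92.6% to 93.2%) and 99.5% in replicate 2 (99.3% to 99.6%). The Mir26a genes together held 1614 counts, or 7.10%, in replicate 1 and 74 counts, or 0.546%, in replicate 2. Mir26b thus set the family's share of these counts in both libraries. Reads of miR-26a-5p with several places are outside these counts, so the shares do not compare the mature products. No count fell on the strand opposite to any of the 3 genes in either library.

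Each library was then compared with the other, gene by gene. The libraries were scaled with the TMM factors of edgeR, and a two-sided exact binomial test with Benjamini-Hochberg adjustment was run over the 429 detected genes. This test compares 2 libraries of the same group against counting error, and it says nothing of conditions. At an adjusted p of 0.05, 61.3% of the detected genes were called, with 32.6% of the detected genes lower and 28.7% higher in replicate 2. All 3 mir-26 genes were among those called lower, which against this background is a description of 3 genes and not evidence that they moved together.

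Mir26a-2 was 17.8-fold lower in replicate 2, a log2 ratio of -4.16 (counting interval -4.57 to -3.79; exact binomial test, adjusted p = 1.52e-265). This was the lowest ratio of all 429 detected genes. The next lowest was -2.28, and no other detected gene differed 10-fold in either direction. The minimum of 10 counts in each library leaves out genes with fewer counts in either, which limits how large a ratio could be. Between 100 and 1000 mean counts, where Mir26a-2 lies, the median absolute log2 ratio of 102 genes was 0.35.

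Mir26a-1 was also lower in replicate 2, by a log2 ratio of -1.17 (counting interval -2.14 to -0.35; exact binomial test, adjusted p = 0.00656). It was the 18th lowest ratio, and 33 detected genes had a larger difference in either direction. Between 10 and 100 mean counts, where Mir26a-1 lies, the median absolute log2 ratio of 145 genes was 0.45.

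Mir26b had a log2 ratio of -0.09 (counting interval -0.12 to -0.06, exact binomial test, adjusted p = 7.67e-08). In absolute value this ratio was smaller than that of 373 of the 429 detected genes. The call of Mir26b depended on the scaling. With library totals in place of TMM factors the ratio was -0.026 (adjusted p = 0.152), and with all reads as the total it was 0.020 (adjusted p = 0.262). The median absolute log2 ratio of all detected genes was 0.33. Both Mir26a genes were lower in replicate 2 under every scaling tried. In tissue made of several cell types, fewer cells of a type and less RNA per cell cannot be told apart, for these genes as for the others. The counts of both Mir26a genes also leave out reads with several places. Whether the uniquely placed part of their reads differed between the libraries, for example through read ends or read length, was not tested.

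**Figure D3:**
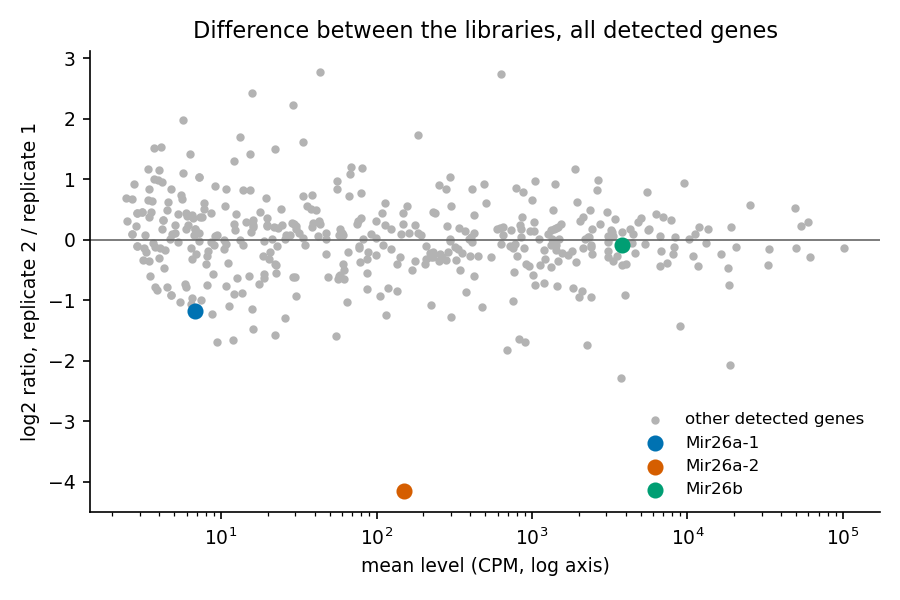
Log2 ratio of replicate 2 to replicate 1 against mean level in CPM (log axis) for the 429 detected genes, with the mir-26 genes coloured. Mir26a-2 lies at -4.16, apart from all others, Mir26a-1 at -1.17 near the lower edge for its level, and Mir26b at -0.09.

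Ratios within the family do not depend on the scaling of the libraries. Mir26a-2 had 7.41% of the counts of Mir26b in replicate 1 and 0.438% in replicate 2, a 16.9-fold difference. Mir26a-1 had 0.242% of the counts of Mir26b in replicate 1 and 0.111% in replicate 2, a 2.17-fold difference. Mir26a-2 held 96.8% of the counts of the Mir26a pair in replicate 1 and 79.7% in replicate 2.

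Other microRNAs with numbered gene copies show how far the counts of copies usually diverged between these libraries. The table holds 138 such genes of 53 microRNAs, the Mir26a pair included. Of these genes 47 were detected and 34 called, 17 in each direction, which is 72.3% beside 61.3% of all detected genes. Their median absolute log2 ratio was 0.44, and 0.41 without the Mir26a pair, beside 0.33 over all detected genes. Each of the 47 detected genes shares a stretch of 22 to 33 bases with another microRNA gene. Their counts too leave out reads with several places. For 21 microRNAs every copy was detected. The log2 ratios of Mir26a-1 and Mir26a-2 lay 2.98 apart, the widest gap among these 21. The next was that of the Mir9 copies, at 1.35, and the median was 0.48.

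As the gap of the Mir26a pair was the widest, all other gaps were smaller by definition. Those of the listed pairs known from neurons and glia follow. Mir9, whose gap is given above, was not among the listed pairs. The copies of Mir128 lay 0.19 apart, those of Mir129 0.13, those of Mir138 0.26, those of Mir7 0.67, those of Mir218 0.85 and those of Mir219a 0.92. The smallest count of a copy was 15 for the Mir26a pair, and ran from 35 for Mir218 to 8382 for Mir128 among the listed pairs. In 20 of the 21 microRNAs the same copy led in both libraries, Mir24 being the exception, and the Mir26a pair was among the 20. These genes were listed with earlier results of these data known, and the gaps were not tested.

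**Figure D4:**
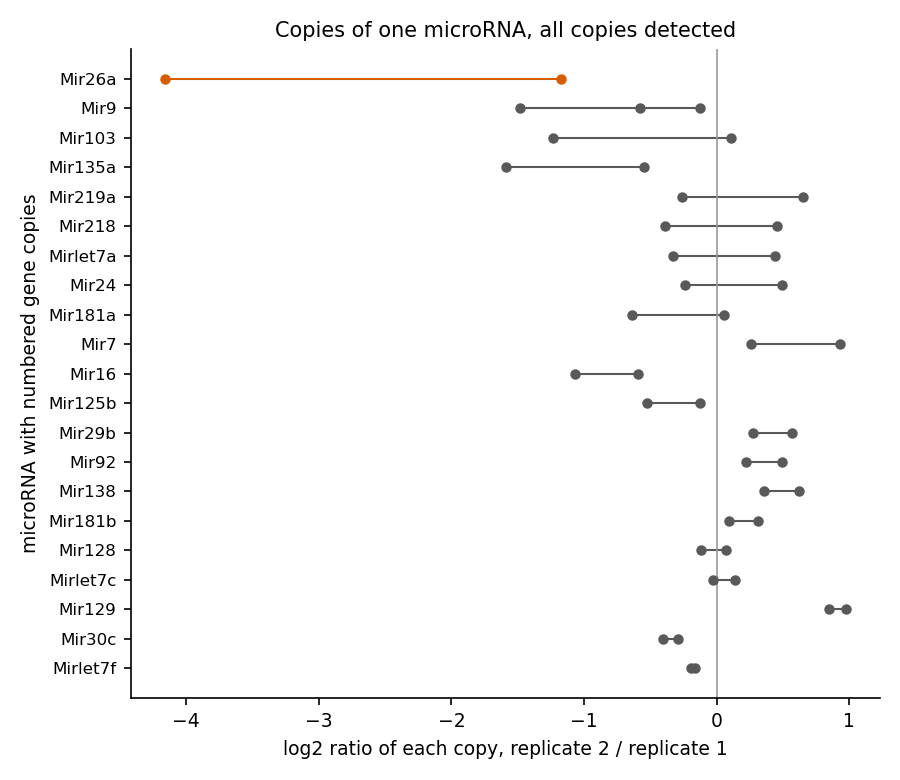
Log2 ratio of replicate 2 to replicate 1 for each gene copy of the 21 microRNAs whose numbered copies were all detected, with a line from the lowest to the highest copy. The Mir26a pair (orange) spans from -4.16 to -1.17, the widest gap, and lies wholly below 0.

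The detected genes most like each member were found by the distance of log2(CPM + 1) over the 2 libraries. For Mir26b they were Mir17, at 3736 and 3578 CPM in replicates 1 and 2, and Mir323, at 3530 and 4035 CPM, with distances of 0.09 and 0.16. Mir26a-1 had Mir6982, with 47 and 15 counts, and Mir669h, with 47 and 16 counts, at distances of 0.11 and 0.13. No gene came near Mir26a-2. Its nearest were Mir135a-2, at 81.0 and 28.1 CPM, and Mir503, at 85.8 and 44.1 CPM, at distances of 1.94 and 2.19. Likeness over 2 libraries describes level only.

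The REST pathway also has microRNAs on its target side, since REST is known to repress the genes of Mir124, Mir9, Mir132 and Mir212 outside neurons. Of the 8 genes listed for this group, 6 were detected and 5 were called between the libraries, 3 lower and 2 higher in replicate 2, beside 61.3% of all detected genes called. The median log2 ratio of the 6 was -0.18, beside 0.04 over all detected genes. Mir132, induced by neuronal activity, led the list at 8514 and 7545 CPM in replicates 1 and 2 (log2 ratio -0.24). Mir212, its neighbour from the same primary transcript, stood at 285 and 534 CPM (log2 ratio 0.84). It matched Mir26a-2 in replicate 1, also at 285 CPM, and was called in the opposite direction.

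The copies of Mir9 and Mir124, microRNAs of neuronal differentiation, had low counts. Mir9-1 had 129 and 31 counts (log2 ratio -1.48) and Mir9-3 had 376 and 171 (-0.58), both called lower in replicate 2. Mir124a-1, with 10 and 20 counts (1.52), was called higher. Mir9-2, with 18 and 11 counts, had a log2 ratio of -0.13 and was not called (exact binomial test, adjusted p = 0.900). Mir124a-2, with 5 and 3 counts, and Mir124a-3, with 9 and 5, were below the minimum. The list thus showed no common direction. These copies too have sequence in common with each other, so their counts cover only reads with a unique place.

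The host messenger RNAs were not measured, and their annotated sequence alone was searched for mir-26 sites. For each host the protein-coding transcript with the longest 3′ UTR was read on its own strand for UACUUGA, written TACTTGA in DNA, the complement of the seed. It was also searched for ACTTGAA, the match to bases 2 to 7 followed by an A, which can overlap TACTTGA by 6 bases. The 3′ UTR of Ctdsp2-201, of 3489 bases, held 1 match of each kind, and these lines show them with the match in capitals.
Ctdsp2 site at base 1080 of the 3′ UTR: agtgttgctctTACTTGAtttgccaaatgc
Ctdsp2 site at base 3395 of the 3′ UTR: tgtattcaaaaACTTGAActgtaggatgcc
In the first 3489 bases of the 2030 3′ UTRs at least as long, 24.6% held TACTTGA and 33.5% held ACTTGAA. The 3′ UTRs of Ctdspl-201, of 3349 bases, and Ctdsp1-201, of 1701 bases, held neither, where 23.6% and 11.6% of windows of the same lengths held TACTTGA and 32.2% and 17.3% held ACTTGAA. A match is a description of the sequence, and its absence says only that these letters are not in this window.

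Replicate 1 held 5479267 sense counts on microRNA genes and replicate 2 held 3563226. Markers of the tissue and of other cell types were read beside these results. The neuronal genes Mir132, Mir128-1, Mir138-1 and Mir137 were detected, with summed levels of 23044 and 24885 CPM in replicates 1 and 2 and log2 ratios from -0.24 to 0.36. The summed levels of other lists were 1543 and 2024 CPM for oligodendrocytes (Mir219a-2 and Mir338), 46.2 and 61.5 CPM for microglia and blood lineage cells (Mir142 and Mir223), 8303 and 7986 CPM for endothelium (Mir126a), and 3432 and 3283 CPM for choroid plexus (Mir204 and Mir449a). Red cell genes (Mir451a and Mir144) stood at 34.3 and 39.0 CPM. These sums join genes that went opposite ways. Log2 ratios were 0.65 for Mir219a-2 and -0.08 for Mir338, and 0.74 for Mir142 and -0.60 for Mir223. They were 0.20 for Mir204 and -0.37 for Mir449a, and 0.18 for Mir451a and -0.14 for Mir144. Of these genes, Mir338, Mir451a and Mir144 were not called. The muscle gene Mir206 stood at 40.2 and 97.1 CPM, and Mir133b had 0 and 1 counts. Mir26a-2 had the largest difference of all detected genes, so no detected marker could differ by as much. The part of these cell types in the difference of Mir26a-2 was not tested.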

How the data were processed

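Each deposited table gives, for 1 library, whole-number read counts of every microRNA gene. The authors used mm10 and GENCODE M21, per the file notes deposited beside the tables. For the aligner, counter and filters, the sources used here give no name. The stranded column with the larger total over genes was taken as sense. Rows without a gene (unmapped 14.2% and 18.0% of all reads in replicates 1 and 2, several places 43.2% and 39.3%, outside microRNA genes 6.16% and 5.17%) stayed out of library sizes and tests.

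Libraries were scaled with TMM (edgeR 4.0.16) or, as an alternative, DESeq2 1.42.0 size factors. Log2 ratios are replicate 2 over replicate 1 with 0.5 counts added. P-values are two-sided exact binomial tests (SciPy 1.17.1), adjusted by Benjamini-Hochberg over genes with at least 10 counts in each library, at 0.05. The test was checked on simulated counts with counting error alone, as it assumes. That check does not cover further spread between libraries. A fit of the difference between the 2 libraries leaves no residual degrees of freedom, so the test is against counting error. Intervals reflect the counting error of reads alone. Without molecular identifiers several reads can stem from 1 molecule, which the intervals do not cover. The libraries were not copies of each other (chi-square of 475 per gene).

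Mature and hairpin sequences came from RefSeq (GRCm38.p6), and 3′ UTRs from GENCODE M21, as the bases after the stop codon. A planned search of the genome for shared windows was replaced by a search of the 2202 annotated microRNA genes. The members and lists were chosen with earlier results of these data known. Named genes are the members, the 2 detected genes nearest to each, the REST list, the markers, and copies of Mir128, Mir129, Mir138, Mir218, Mir219a and Mir7 (planned as Mir7a). Mir546, Mir9 as the next widest gap and Mir24 were named outside this rule.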

Additional observations from a re-analysis of the deposited data

How the results depend on the processing

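Both Mir26a genes kept their direction and their call under every alternative that tested them, with log2 ratios from -4.20 to -4.05 for Mir26a-2 and from -1.22 to -1.07 for Mir26a-1. A minimum of 100 counts in each library leaves both untested. Mir26b lost its call with library totals (log2 ratio -0.026) and changed sign, without a call, with all reads as the total (0.020). That total moved the median log2 ratio of detected genes by 0.11 relative to TMM, and the share of calls that were higher in replicate 2 was 58.3% with it, 52.7% with library totals, 42.7% with DESeq2 size factors and 46.8% with TMM. The number of genes called ran from 220 to 288 beside 263.

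With all reads as the denominator, Mir26a-1 stood at 2.48, Mir26a-2 at 55.01 and Mir26b at 1412 counts per 1000000 reads and the family's share was 0.147%. With counts made without regard to strand, Mir26b stood at 4059 CPM and the family's share was 0.423%, since the total on genes is smaller there. With a minimum of 100 counts, 3 genes of the REST list were tested and 3 called, beside 220 of all 267 genes tested (82.4%). Without a replicate, values ran from 4.21 to 9.31 CPM for Mir26a-1, from 16.6 to 285 CPM for Mir26a-2, from 3783 to 3852 CPM for Mir26b and from 0.380% to 0.415% for the family. With 1 library left, no ratio between libraries can be formed. Windows of 18, 20 or 24 bases, chosen after the data were seen, left the share of windows of a gene's own between 88.1% and 97.0% for the Mir26a genes and at 100% for Mir26b. No paired analysis was possible because the series has 1 group. Depth limits Mir26a-1 most, with 15 counts in replicate 2.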
